A study of Mus musculus with 48 samples.

Results

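The transcription factors that give striatal spiny projection neurons their identity were followed through the striatum of 6 mouse genotypes. The 10 genes were taken by name: Bcl11b, Foxp1, Foxp2, Meis2, Rarb and Rxrg as factors of both spiny projection neuron classes, Isl1, Ebf1 and Eya1 as regulators of the direct-pathway class, and Sp9 as a further identity regulator. All 10 were among the 48795 genes of the count table, and all 10 were among the 19714 genes that passed the filter on low counts and were tested. Each had at least 405 counts in every library.

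Spiny projection neurons are the principal neurons of the striatum and are GABAergic. The direct-pathway class carries the dopamine receptor Drd1 and projects to the midbrain and inner pallidum, while the indirect-pathway class carries Drd2 and projects to the outer pallidum. Factors such as Bcl11b, Foxp1 and Meis2 act in both classes, whereas Isl1 and Ebf1 are known for building the direct pathway and Sp9 for building the indirect one. Several of these factors stay on in the adult neuron, where they are thought to maintain the expression of receptors and signalling enzymes.

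Striatal RNA was sequenced from 48 mice on a C57BL/6 background, 4 females and 4 males in each of the 6 genotypes. Q140 is a knock-in model of Huntington's disease in which a mouse Htt allele carries an expanded CAG repeat, and the labels give these mice as heterozygous. Msh3 encodes a mismatch repair protein that acts in the expansion of such repeats in somatic cells, and the design combined its loss with Q140. The groups were Q140 x Msh3-/-, which carries Q140 and lacks both Msh3 alleles, Q140 x Msh3+/-, which carries Q140 and lacks a single Msh3 allele, Q140 with both Msh3 alleles, Msh3-/- and Msh3+/- without Q140, and wild type (WT). The labels give all mice as 12 months old, but their extraction protocol names 6 months for the dissection; which of these holds is not known. The striatum was taken whole, so that fewer cells of a type and less RNA per cell cannot be told apart in any result that follows.

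Library totals ranged from 38.9 M to 60.9 M counts (M, 1e+06), with a median of 47.3 M. Msh3 RNA, the check of the labels, was 116 ± 7.78 CPM in the Q140 x Msh3-/- group, 74.9 ± 3.92 CPM in the Q140 x Msh3+/- group and 30.5 ± 1.19 CPM in the Q140 group, beside 122 ± 3.1 CPM in the Msh3-/- group, 73.9 ± 1.56 CPM in the Msh3+/- group and 29.0 ± 1.61 CPM in the WT group (SD, n = 8 each; CPM, TMM-scaled counts per 1e+06 counts). The 3 labelled Msh3 doses did not overlap, but the RNA was higher, not lower, with each labelled loss of an allele, and each group is called here by its label. Spiny projection neuron markers were abundant in all groups, with 8 markers of both classes summing to between 7610 and 8460 CPM in Q140 mice and between 12400 and 14300 CPM in WT mice. After genotype and sex were taken out, 4 libraries stood apart on the leading component, which held 9.29% of the remaining variance: their scores were 25.9 to 44.94, against -19.32 to 12.19 in the others. They were 1 Q140 x Msh3-/- male, 1 Q140 x Msh3+/- female and 2 Msh3-/- mice, and results that changed without them are given both ways. Apart from these, 2 Q140 and 2 WT libraries had names that did not begin with the main prefix, and no other genotype held such names. What the prefixes stand for is not given in the sources used here.

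Promoter sequences from RefSeq for GRCm38.p6, each running from 250 bases before to 50 bases after an annotated start, were matched by symbol for 8 of the 10 genes, in 12 windows. The 4 shown are those of the 2 retinoid receptors, where the motif search found receptor letters, of Bcl11b, which was lower with Q140, and of Isl1, which was higher. They are written 5′ to 3′ on the gene's strand. Capitals mark a DR5 retinoid element, the half-site AGGTCA or the MEIS motif TGACAG. A DR5 element was a pair of half-sites on the same strand with any 5 bases between them, where the half-sites allowed were AGGTCA, the variant spelled AGTTCA, the variant spelled GGGTCA and the variant spelled GGTTCA.
Rarb, chr14:16575427-16575726, minus strand: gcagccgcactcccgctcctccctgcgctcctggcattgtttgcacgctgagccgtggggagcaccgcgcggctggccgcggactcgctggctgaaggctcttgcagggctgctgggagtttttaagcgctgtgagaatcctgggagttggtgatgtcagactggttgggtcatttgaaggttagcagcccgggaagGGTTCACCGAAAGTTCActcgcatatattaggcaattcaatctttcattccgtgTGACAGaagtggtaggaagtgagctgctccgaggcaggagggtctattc
Rxrg, chr1:167618015-167618314, plus strand: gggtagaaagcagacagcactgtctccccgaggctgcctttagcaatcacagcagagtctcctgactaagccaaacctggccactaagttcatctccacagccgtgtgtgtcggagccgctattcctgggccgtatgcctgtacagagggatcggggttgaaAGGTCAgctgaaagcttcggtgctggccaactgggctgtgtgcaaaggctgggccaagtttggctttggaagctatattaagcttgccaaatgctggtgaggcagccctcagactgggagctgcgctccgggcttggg
Bcl11b, chr12:108003365-108003664, minus strand: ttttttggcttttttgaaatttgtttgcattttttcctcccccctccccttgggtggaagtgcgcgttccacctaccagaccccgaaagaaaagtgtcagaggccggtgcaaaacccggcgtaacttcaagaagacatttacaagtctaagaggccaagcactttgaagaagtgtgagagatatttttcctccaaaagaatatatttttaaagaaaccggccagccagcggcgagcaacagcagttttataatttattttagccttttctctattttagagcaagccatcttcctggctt
Isl1, chr13:116309639-116309938, minus strand: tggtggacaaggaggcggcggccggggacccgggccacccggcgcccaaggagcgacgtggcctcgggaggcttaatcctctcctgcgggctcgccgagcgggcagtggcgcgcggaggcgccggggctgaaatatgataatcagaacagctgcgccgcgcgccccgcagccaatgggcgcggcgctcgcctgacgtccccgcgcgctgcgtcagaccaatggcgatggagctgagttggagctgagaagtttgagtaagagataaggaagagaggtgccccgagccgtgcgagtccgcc
The Rarb start lies inside the longer annotated gene. Its window held the DR5 element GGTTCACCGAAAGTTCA, whose first base lay at position -53 from the start, the element through which retinoic acid receptors are known to act on Rarb itself. Searched on both strands, the DR5 pattern was in 32 of 32851 mouse promoter windows (0.0974%) and, among the 8 genes, in Rarb. The half-site AGGTCA was in 16.3% of windows and in 1 of the 12 windows of these genes. That was the Rxrg window shown, whose start also lies inside the longer annotated gene. The other Rxrg window, chr1:167598112-167598411, held none. The MEIS motif TGACAG was in 19.2% of windows and in Foxp1 and Rarb, the Sp motif GGGCGG in 35.7% and in Foxp1 and Sp9, and the forkhead motif TGTTTAC in 3.65% and in none of the 12 windows. The Isl1 window held 37 CpG dinucleotides, more than 94.4% of promoter windows, compared with 17 in the Rarb window, 9 in the Bcl11b window and a median of 7 over all windows. Among windows not shown, those of Foxp1, which was lower with Q140, held 44, 13 and 5, and that of Sp9 held 25. The Foxp1 window with 44 held more than 97.8% of promoter windows. These matches describe the letters of the windows, not binding.

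Per gene length, the 10 factors fell into a high and a low set. Mean deposited FPKM (fragments per kilobase, scaled to the library total) in WT mice was 64.1 for Bcl11b, 57.0 for Rxrg, 51.7 for Meis2, 39.1 for Rarb and 37.1 for Foxp1. The others lay far below, with mean WT FPKM of 5.29 for both Sp9 and Foxp2, 4.1 for Isl1, 2.8 for Ebf1 and 1.47 for Eya1. The same 5 genes made up the high set in Q140 mice, where mean FPKM was 51.3 for Bcl11b, 43.3 for Meis2, 39.7 for Rxrg, 31.4 for Rarb and 29.9 for Foxp1. These 5 factors act in both classes; Foxp2 was the sole shared factor in the low set. The coefficient of variation between replicates over the 6 groups was 3.67% to 5.96% for Meis2, 6.54% to 19.2% for Rxrg and 8.03% to 14.2% for Eya1.

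**Figure D1:**
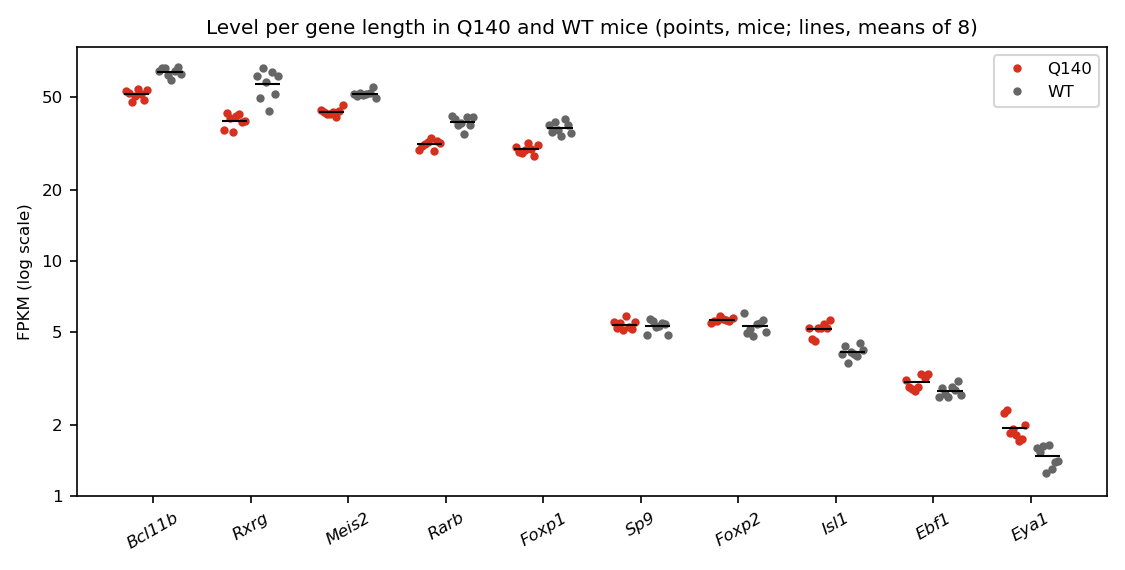
Deposited FPKM of the 10 factors on a log axis, with Q140 mice (red, left) beside WT mice (grey, right); points are mice and lines are means of 8. Bcl11b, Rxrg, Meis2, Rarb and Foxp1 had means of 29.9 to 51.3 in Q140 mice and 37.1 to 64.1 in WT mice, while the other 5 had means of 1.95 to 5.63 in Q140 mice and 1.47 to 5.29 in WT mice.

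The abundant shared factors were lower in Q140 than in WT striatum, while 2 of the 3 direct-pathway regulators were higher. By edgeR's quasi-likelihood test with Benjamini-Hochberg adjustment over all genes tested, which gives every adjusted p below unless another tool is named, 5 of the 10 factors fell, 2 rose and 3 did not pass the threshold of 0.05. The background is wide: 33.0% of all genes tested were called in this comparison, 3358 higher and 3148 lower, and with scaling by total counts alone the split was 5773 higher and 2064 lower. The median log2 fold change was -0.19 over the 10 factors and -0.004 over all genes tested. The ranges of Q140 and WT mice did not overlap for 5 of the 10, all of them factors that fell. The share of all genes tested whose ranges did not overlap was not determined, so this count has no background.

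Bcl11b, a zinc-finger factor needed for the differentiation of spiny projection neurons, had 376.8 CPM in the lowest Q140 mouse, a median of 408.0 and 428.5 in the highest, against 485.5, 539.6 and 560.0 CPM in WT mice. Every Q140 mouse lay below every WT mouse. Its log2 fold change was -0.39 ± 0.04 (SE; adjusted p = 1.28e-11), and the level fell by 23.6%. Foxp1, a forkhead repressor of both classes, had 372.4, 398.2 and 423.2 CPM as the lowest, median and highest Q140 values, against 476.3, 524.6 and 571.1 CPM in WT mice. Again the groups did not overlap, and the log2 fold change was -0.38 ± 0.05 (adjusted p = 2.42e-09). Foxp2, the related forkhead factor known for its part in vocal learning, had 87.65, 89.14 and 92.97 CPM in Q140 mice, against 80.35, 88.4 and 100.6 CPM in WT mice. All Q140 values lay inside the WT range. The difference was 0.02 ± 0.05 on the log2 scale, with a 95% interval of -0.07 to 0.11 (adjusted p = 0.778). Meis2, a homeodomain factor that binds DNA with Pbx partners, had 476.2, 505.4 and 549.5 CPM in Q140 mice, against 603.6, 636.6 and 683.9 CPM in WT mice. Its groups did not overlap either, and the log2 fold change was -0.32 ± 0.04 (adjusted p = 9.89e-11).

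The 2 retinoid receptors fell as well. Rarb and Rxrg encode nuclear receptors for vitamin A derivatives that bind DNA as pairs, and mice lacking them are known for defects of locomotion and dopamine signalling. Rarb had 85.66, 94.16 and 98.48 CPM as the lowest, median and highest Q140 values, against 107.8, 122.3 and 128.9 CPM in WT mice. No Q140 mouse reached the lowest WT mouse, and the log2 fold change was -0.38 ± 0.05 (adjusted p = 2.71e-08). Rarb is overlapped on the opposite strand by Top2b, which had a mean of 5573 counts per library beside 5404 for Rarb. Since the strand setting of the counting is not given in the sources used here, reads shared by the 2 genes cannot be told apart. Rxrg had 79.25, 90.08 and 97.21 CPM in Q140 mice, against 101.8, 139.9 and 157.0 CPM in WT mice. The groups did not overlap, but the gap between the highest Q140 and the lowest WT mouse was small because the WT mice were widely spread. Its fold change was the most negative of the 10 and the least precise of the 6 shared factors, at -0.59 ± 0.09 (adjusted p = 1.41e-06), a level that fell by 33.5%.

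Among the direct-pathway regulators, Isl1 and Eya1 rose. Isl1 encodes a LIM-homeodomain factor required for direct-pathway neurons and for cholinergic interneurons. It had 17.5, 19.96 and 21.88 CPM as the lowest, median and highest Q140 values, against 15.01, 16.53 and 18.28 CPM in WT mice. In all, 7 of the 8 Q140 mice lay above the highest WT mouse, so the ranges overlapped through a single animal, and the log2 fold change was 0.25 ± 0.05 (adjusted p = 3.47e-05). Eya1, a transcriptional coactivator with phosphatase activity that works with homeodomain proteins of the sine oculis family, had 12.79, 14.37 and 18.02 CPM in Q140 mice, against 9.985, 11.73 and 13.11 CPM in WT mice. Here too 7 of 8 Q140 mice exceeded the highest WT mouse, and the log2 fold change was 0.34 ± 0.08 (adjusted p = 0.000467). Ebf1, a helix-loop-helix factor of direct-pathway differentiation, had 26.54, 29.06 and 31.75 CPM in Q140 mice, against 26.33, 27.95 and 31.02 CPM in WT mice. The ranges coincided almost entirely; the difference was 0.05 ± 0.05 (95% interval -0.04 to 0.14; adjusted p = 0.426), although with scaling by total counts it was 0.12 with an adjusted p of 0.0254.

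Sp9, a zinc-finger factor of the indirect pathway, had 24.98, 26.28 and 28.43 CPM in Q140 mice, against 24.88, 27.62 and 29.03 CPM in WT mice. The Q140 values lay within the WT range, and the difference was -0.05 ± 0.05 (95% interval -0.16 to 0.06; adjusted p = 0.507). Sp9 is overlapped on the opposite strand by Cir1, whose mean count was 33.4% of that of Sp9, with the same limit on strand.

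**Figure D2:**
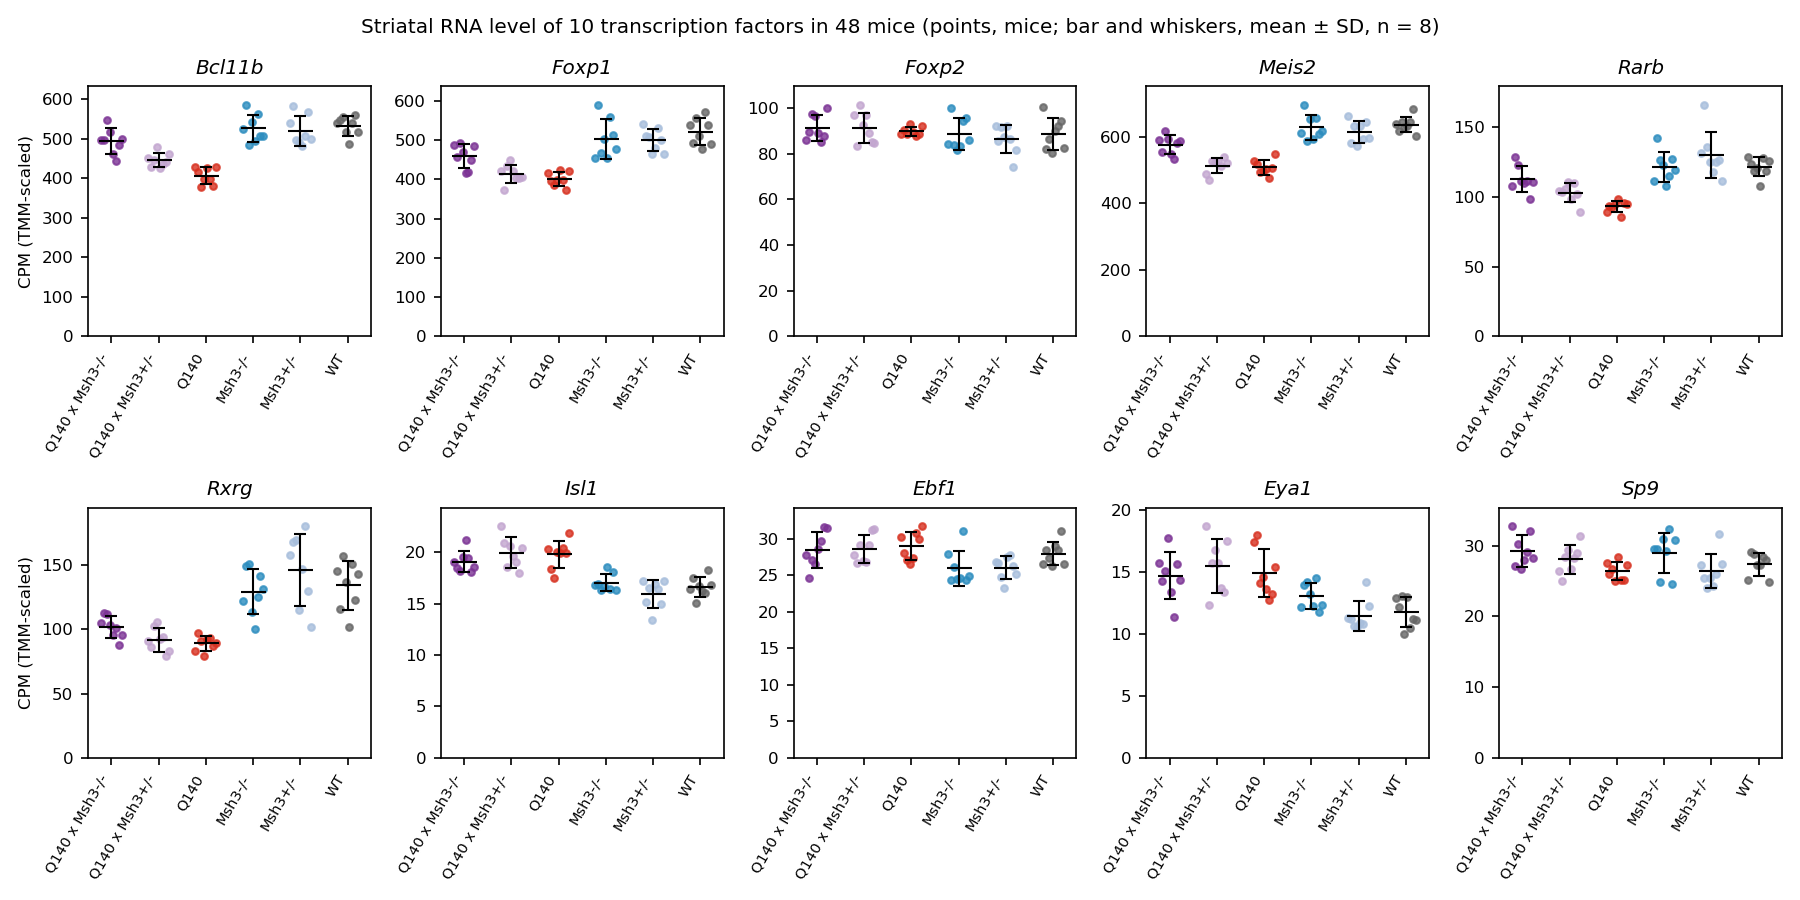
Level of each factor in all 48 mice as TMM-scaled CPM on linear axes that start at 0; points are mice, and the black bar with whiskers is the mean ± SD of 8. In Bcl11b, Foxp1, Meis2, Rarb and Rxrg the mean of Q140 mice is lowest and the means of the 3 genotypes without Q140 are highest, with Q140 x Msh3-/- between them; in Isl1 and Eya1 the 3 genotypes with Q140 have the higher means.

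The Q140 difference was measured again on each Msh3 background, in mice that share no library with the comparison of Q140 with WT. Between Q140 x Msh3+/- and Msh3+/- mice, 5 factors fell and 3 rose, against a background of 21.5% of all genes called, with 2120 higher and 2127 lower (4507 and 1351 with total counts). The 7 factors called in Q140 against WT were all called again in the same direction, which is 100% of the first set and 87.5% of the second. How many of all genes called in Q140 against WT were called again was not counted, so these shares have no background. The log2 fold changes were -0.22 ± 0.04 for Bcl11b (adjusted p = 1.87e-05), -0.27 ± 0.05 for Foxp1 (7.08e-06), -0.26 ± 0.04 for Meis2 (6.84e-08), -0.33 ± 0.05 for Rarb (1.16e-06) and -0.67 ± 0.09 for Rxrg (1.88e-07). For Bcl11b, Foxp1, Meis2 and Rarb all 8 cross mice lay below the lowest Msh3+/- mouse; for Rxrg 6 of 8 did. Isl1 was 0.32 ± 0.05 higher (adjusted p = 5.52e-07), with 17.94 to 22.54 CPM in Q140 x Msh3+/- mice and 13.37 to 17.16 CPM in Msh3+/- mice, ranges that did not overlap. Eya1 was 0.43 ± 0.08 higher (adjusted p = 3.13e-05), and Ebf1, not called in Q140 against WT, was 0.13 ± 0.05 higher (adjusted p = 0.0265) with all 8 cross mice above the Msh3+/- mean.

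On the Msh3-/- background fewer of the factors were called. Between Q140 x Msh3-/- and Msh3-/- mice, 2 factors fell and 1 rose, and 7.86% of all genes were called (791 higher and 758 lower; 1252 and 623 with total counts). Meis2 was -0.13 ± 0.04 (adjusted p = 0.0168), Rxrg -0.35 ± 0.09 (0.0113) and Isl1 0.16 ± 0.05 (0.0266). These 3 are 42.9% of the 7 called in Q140 against WT and 100% of those called here. Here too the matching shares over all genes were not counted. Bcl11b, with 443.2, 497.3 and 548.6 CPM in Q140 x Msh3-/- mice and 484.9, 515.5 and 586.5 CPM in Msh3-/- mice, had overlapping ranges and a difference of -0.09 ± 0.04 (adjusted p = 0.157). Foxp1 was -0.13 ± 0.05 (adjusted p = 0.076) and passed the threshold once the 4 libraries that stood apart were left out, at -0.16 (adjusted p = 0.038). Rarb was -0.11 ± 0.05 (adjusted p = 0.203), and -0.16 without those libraries (0.0782).

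**Figure D3:**
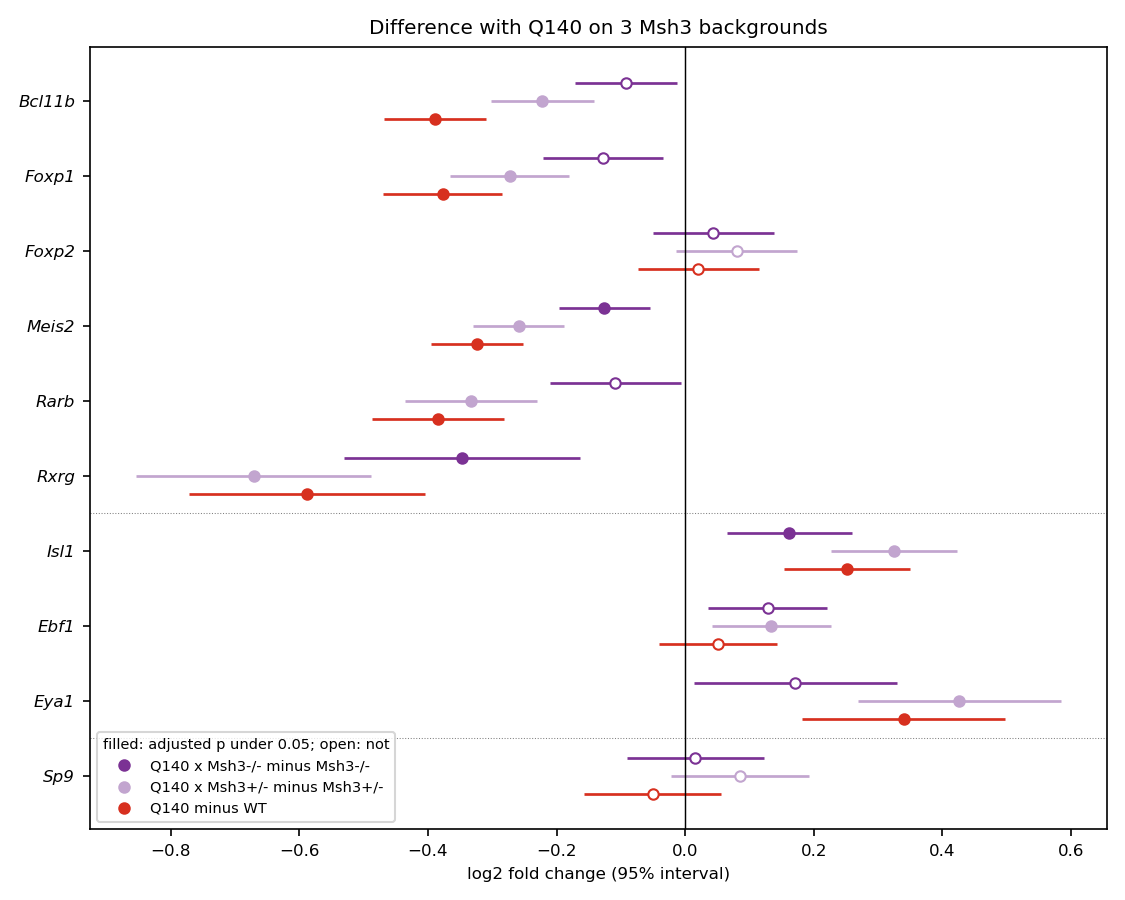
Log2 fold change of each factor with Q140 on the Msh3-/- (dark purple), Msh3+/- (light purple) and WT (red) backgrounds, with 95% intervals; filled points passed an adjusted p of 0.05. Bcl11b, Foxp1, Meis2 and Rarb lie at -0.39 to -0.32 on the WT background and at -0.13 to -0.09 on the Msh3-/- background.

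The change of the Q140 difference with Msh3 was tested directly as an interaction, the Q140 difference on the Msh3-/- background minus that on the WT background. It was called positive for 4 of the 10 factors and called negative for none, with 6.15% of all genes called (806 positive and 407 negative; 537 and 1194 with total counts). The interaction was 0.30 ± 0.06 for Bcl11b (adjusted p = 0.000243), 0.25 ± 0.07 for Foxp1 (0.0109), 0.20 ± 0.05 for Meis2 (0.00822) and 0.28 ± 0.07 for Rarb (0.0115). For Rarb it was 0.23 with an adjusted p of 0.0609 once the 4 libraries that stood apart were left out, whereas Bcl11b, Foxp1 and Meis2 stayed under the threshold. Rxrg had 0.24 ± 0.13 (95% interval -0.02 to 0.50; adjusted p = 0.308), and the 3 direct-pathway regulators had -0.09 ± 0.07 for Isl1, 0.08 ± 0.06 for Ebf1 and -0.17 ± 0.11 for Eya1, none of which passed (adjusted p = 0.527, 0.575 and 0.435). The matching interaction for Msh3+/- was called for none of the 10 by edgeR, with values of -0.08 to 0.17 and 1 factor at an unadjusted p under 0.05; DESeq2 also called 0 of them, and 0.0152% of all genes were called.

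Within Q140 mice, the loss of both Msh3 alleles came with higher levels of 5 of the 10 factors and lower levels of none. In Q140 x Msh3-/- against Q140, 16.3% of all genes were called, 1725 higher and 1492 lower, a split that became 1283 and 2869 with total counts; the median log2 fold change was 0.16 over the 10 factors and 0.0 over all genes. This comparison uses the same Q140 libraries as the comparison of Q140 with WT, so the 2 sets of values are not independent. Bcl11b had 443.2, 497.3 and 548.6 CPM as the lowest, median and highest values in Q140 x Msh3-/- mice, against 376.8, 408.0 and 428.5 CPM in Q140 mice. Every cross mouse lay above every Q140 mouse, and the log2 fold change was 0.28 ± 0.04 (adjusted p = 4.17e-07). Rarb had 98.67, 110.9 and 128.9 CPM in Q140 x Msh3-/- mice, against 85.66, 94.16 and 98.48 CPM in Q140 mice. The groups only just failed to touch, and the log2 fold change was 0.27 ± 0.05 (adjusted p = 8.24e-05).

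Foxp1 had 416.2, 464.3 and 492.7 CPM in Q140 x Msh3-/- mice, against 372.4, 398.2 and 423.2 CPM in Q140 mice, and rose by 0.19 ± 0.05 on the log2 scale (adjusted p = 0.00172). Meis2 had 533.6, 586.4 and 618.4 CPM in Q140 x Msh3-/- mice, against 476.2, 505.4 and 549.5 CPM in Q140 mice, and rose by 0.18 ± 0.04 (adjusted p = 0.000165). In both genes all 8 cross mice lay above the Q140 mean and 6 of 8 above the highest Q140 mouse. Sp9 had 26.75, 28.64 and 32.76 CPM in Q140 x Msh3-/- mice, against 24.98, 26.28 and 28.43 CPM in Q140 mice. All 8 cross mice exceeded the Q140 mean and 4 of them the highest Q140 mouse, but the call was close to the threshold at 0.15 ± 0.05 (adjusted p = 0.045) and was lost under 5 other settings that keep both sexes, with adjusted p between 0.0519 and 0.114. Rxrg had 88.05, 102.3 and 113.0 CPM in Q140 x Msh3-/- mice, against 79.25, 90.08 and 97.21 CPM in Q140 mice. Of the 8 cross mice 5 lay above the highest Q140 mouse, yet the difference of 0.19 ± 0.09 did not pass (adjusted p = 0.163) in the fit of all groups, which uses the wide spread of Rxrg over all 48 mice; in a fit of these 2 groups alone the adjusted p was 0.00719.

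The factors that rose with Q140 were not called in this comparison. Isl1 had 18.05, 18.82 and 21.18 CPM in Q140 x Msh3-/- mice, against 17.5, 19.96 and 21.88 CPM in Q140 mice, a difference of -0.05 ± 0.05 (95% interval -0.15 to 0.04; adjusted p = 0.505). Eya1 had 11.37, 14.75 and 17.8 CPM in Q140 x Msh3-/- mice, against 12.79, 14.37 and 18.02 CPM in Q140 mice, a difference of -0.02 ± 0.08 (95% interval -0.17 to 0.14; adjusted p = 0.911). The ranges overlapped almost fully in both genes. Ebf1 differed by -0.03 ± 0.05 (adjusted p = 0.725) and Foxp2 by 0.02 ± 0.05 (adjusted p = 0.783).

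**Figure D4:**
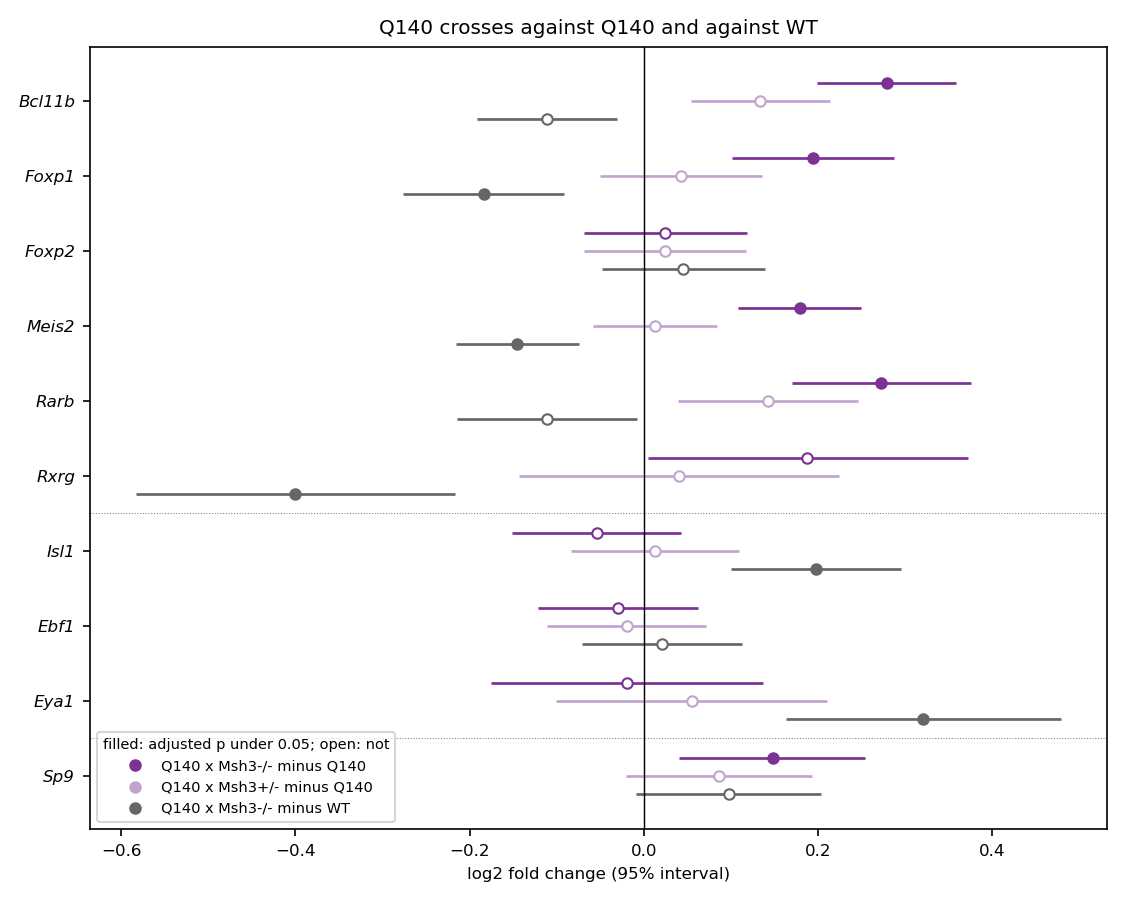
Log2 fold change of each factor in Q140 x Msh3-/- against Q140 (dark purple), Q140 x Msh3+/- against Q140 (light purple) and Q140 x Msh3-/- against WT (grey), with 95% intervals; filled points passed an adjusted p of 0.05. Bcl11b, Foxp1, Meis2, Rarb and Sp9 lie at 0.15 to 0.28 in the first, and Isl1 and Eya1 at 0.20 and 0.32 in the third.

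With the loss of a single Msh3 allele, none of the 10 factors was called by edgeR in Q140 x Msh3+/- against Q140, where 1.32% of all genes were called; 2 factors had an unadjusted p under 0.05. Bcl11b had 426.8, 443.9 and 479.6 CPM in Q140 x Msh3+/- mice, against 376.8, 408.0 and 428.5 CPM in Q140 mice. Of the 8 cross mice 7 lay above the highest Q140 mouse, and the difference was 0.13 ± 0.04 (adjusted p = 0.0734); DESeq2 called it (adjusted p = 0.0426), as did edgeR with total counts (0.0309). Rarb, with 89.45 to 110.7 CPM in Q140 x Msh3+/- mice and 85.66 to 98.48 CPM in Q140 mice, had a difference of 0.14 ± 0.05 (adjusted p = 0.158). Foxp1 and Meis2 differed by 0.04 ± 0.05 and 0.01 ± 0.04 (adjusted p = 0.726 and 0.91).

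The 2 crosses were also set against each other. In Q140 x Msh3-/- against Q140 x Msh3+/-, 2 factors were higher and none lower, with 3.23% of all genes called (452 higher and 185 lower; 252 and 679 with total counts). Meis2 rose by 0.17 ± 0.04 (adjusted p = 0.0026), with 533.6 to 618.4 CPM in Q140 x Msh3-/- mice and 471.4 to 539.0 CPM in Q140 x Msh3+/- mice, and 7 of 8 mice lay above the highest Q140 x Msh3+/- mouse. Bcl11b rose by 0.14 ± 0.04 (adjusted p = 0.0259), a call lost with total counts (adjusted p = 0.0857). Foxp1 was at 0.15 ± 0.05 (adjusted p = 0.0539) and was called without the 4 libraries that stood apart (0.17, adjusted p = 0.0234), by DESeq2 (0.033) and in a fit of these groups alone (0.0401).

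The order of the 6 group means, from low to high, was shared by several factors. For Bcl11b it was Q140 (406.7 CPM), Q140 x Msh3+/- (446.4), Q140 x Msh3-/- (493.7), Msh3+/- (520.6), Msh3-/- (526.0) and WT (532.8). Foxp1 had the same order of groups, with means of 401.8, 414.0, 459.8, 500.0, 502.3 and 522.0 CPM, and so did Meis2, with 509.5, 514.2, 576.7, 615.3, 629.4 and 637.5 CPM. Rarb and Rxrg kept the 3 Q140 genotypes in that order at the low end and had Msh3+/- highest, at 129.8 and 146.1 CPM, next to WT means of 121.6 and 134.1 CPM. Isl1 and Eya1 shared another order, lowest in Msh3+/- (15.95 and 11.49 CPM), then WT (16.61 and 11.76), Msh3-/- (17.03 and 13.06), Q140 x Msh3-/- (19.06 and 14.72), Q140 (19.79 and 14.92) and Q140 x Msh3+/- (19.95 and 15.49). Group means of Foxp2 ran from 86.44 to 91.4 CPM, of Ebf1 from 25.96 to 28.98 CPM and of Sp9 from 26.4 to 29.26 CPM. Neighbours in these orders were mostly within the replicate spread. The means of 2 of the 5 neighbouring pairs were apart by more than the larger SD for each of Bcl11b, Foxp1, Meis2, Rarb and Rxrg, 1 pair for each of Isl1, Ebf1 and Eya1, and none for Foxp2 and Sp9, and neighbouring ranges overlapped in all 10 factors.

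Set against WT, Q140 x Msh3-/- mice still had 3 factors lower and 2 higher, with 6.28% of all genes called (574 higher and 665 lower; 1364 and 486 with total counts). Rxrg was -0.40 ± 0.09 (adjusted p = 0.00305), Foxp1 -0.18 ± 0.05 (0.00697) and Meis2 -0.14 ± 0.04 (0.00525), with all 8 cross mice below the WT mean in each. Isl1 was 0.20 ± 0.05 higher (adjusted p = 0.00541) and Eya1 0.32 ± 0.08 higher (0.00536), with 6 of 8 and 7 of 8 cross mice above the highest WT mouse. Bcl11b and Rarb, both -0.11 with SE of 0.04 and 0.05, did not pass (adjusted p = 0.0839 and 0.212).

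Without Q140, no factor was called in either Msh3 genotype by edgeR. In Msh3-/- against WT the 10 log2 fold changes ran from -0.11 to 0.15 (lowest adjusted p = 0.814; 1 factor at an unadjusted p under 0.05), and 0.0457% of all genes were called. In Msh3+/- against WT they ran from -0.10 to 0.12 (lowest adjusted p = 0.981; again 1 factor at an unadjusted p under 0.05), and 0.0101% of all genes were called. DESeq2 called 0 of the 10 in either comparison. Isl1 lies on the same chromosome as Msh3, 23.9 Mb away.

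The sexes were compared over all genotypes. Between female and male mice, 1 of the 10 factors was called, with 4.26% of all genes called: Ebf1 was -0.10 ± 0.03 in females (adjusted p = 0.0237), a level that fell by 6.43%. The difference between the sexes in the Q140 effect was called for none of the 10 by edgeR, with 0.0% of all genes called, 658 genes and no factor at an unadjusted p under 0.05. The same held for the sex difference in the effect of Q140 x Msh3-/- against Q140, with 0.0% of all genes called, 731 genes and no factor at an unadjusted p under 0.05.

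Close relatives of the 10 factors moved in both directions. Of 15 family relatives tested, 3 rose and 3 fell in Q140 against WT, and 2 rose in Q140 x Msh3-/- against Q140, beside the 33.0% and 16.3% of all genes. Bcl11a, the paralog of Bcl11b, rose by 0.20 ± 0.04 (adjusted p = 2.77e-05), with 88.0 ± 6.84 CPM in Q140 mice and 76.5 ± 3.82 CPM in WT mice. Foxp4 rose by 0.27 ± 0.05 (adjusted p = 6.47e-06) and Meis1 by 0.21 ± 0.06 (0.00647). Rxrb, a retinoid X receptor like Rxrg, was -0.15 ± 0.04 (adjusted p = 0.00129). The other called relatives, named after their values were seen, also fell, Meis3 with -0.13 ± 0.05 (adjusted p = 0.0344) and Rxra with -0.10 ± 0.04 (0.0213). The MEIS family thus held calls in both directions, and the share of relatives called was close to that of all genes.

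Proteins known to work with the factors were counted next. Of 25 protein partners tested, 6 rose and 4 fell in Q140 against WT, and 6 rose and 3 fell in Q140 x Msh3-/- against Q140, beside the 33.0% and 16.3% of all genes called in either direction. Lmo2, a LIM-only adaptor, had 31.2 ± 1.95 CPM in Q140 mice and 58.5 ± 5.12 CPM in WT mice, a log2 fold change of -0.91 ± 0.06 (adjusted p = 2.4e-18), and was 0.62 ± 0.06 higher in Q140 x Msh3-/- than in Q140 mice (5.66e-12). Ldb1, which bridges LIM factors such as Isl1 to their partners, was -0.22 ± 0.03 (adjusted p = 1.01e-07). Chd3 and Hdac1, subunits of the NuRD repressor complex that Bcl11b is known to recruit, rose by 0.31 ± 0.03 (adjusted p = 3.31e-11) and 0.58 ± 0.08 (1.91e-08). Of the other NuRD genes in the list, named after their values were seen, Hdac2 rose by 0.11 ± 0.04 (adjusted p = 0.0117), and Chd4 at -0.07 ± 0.03, Mta1 at -0.05 ± 0.03 and Mta2 at -0.03 ± 0.03 did not pass (0.0857, 0.231 and 0.473). Chd3 and Hdac1 were lower in Q140 x Msh3-/- than in Q140 mice, with log2 fold changes of -0.11 ± 0.03 (adjusted p = 0.0115) and -0.36 ± 0.08 (0.00044).

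Among 19 other factors of striatal development, 1 rose and 3 fell in Q140 against WT, and 6 rose in Q140 x Msh3-/- against Q140. With 33.0% of all genes called in Q140 against WT, the share called in this list lay below the background; in Q140 x Msh3-/- against Q140, 1725 of the 19714 genes rose. Foxo1, a forkhead factor of insulin signalling, fell by 0.55 ± 0.05 on the log2 scale (adjusted p = 3.42e-12), Egr3, an activity-induced factor of spiny projection neurons, was -0.48 ± 0.08 (7.95e-06), and Dlx6, a homeodomain factor of GABAergic neurons, was -0.26 ± 0.04 (2.03e-06). Ikzf2 rose by 0.43 ± 0.10 (adjusted p = 0.000609). Of 12 genes of retinoid supply and turnover, 6 fell and none rose in Q140 against WT, where 3148 of the 19714 genes fell, and 4 rose in Q140 x Msh3-/- against Q140. Rbp4, the retinol carrier, had 5.76 ± 0.67 CPM in Q140 mice and 10.1 ± 0.82 CPM in WT mice (-0.82 ± 0.07; adjusted p = 1.5e-14). Dhrs3, which turns retinaldehyde back into retinol, was -0.60 ± 0.12 (8e-05), Crabp2, which carries retinoic acid, -0.47 ± 0.10 (0.000293), and Aldh1a1, which makes retinoic acid, -0.39 ± 0.11 (0.00534).

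Receptors, enzymes and peptides of mature spiny projection neurons were read beside the factors. The share of all genes called was 33.0% in Q140 against WT and 16.3% in Q140 x Msh3-/- against Q140. All 8 markers shared by both classes fell in Q140 against WT, with a median log2 fold change of -0.80, and all 8 rose in Q140 x Msh3-/- against Q140, with a median of 0.46. The 5 indirect-pathway markers tested include Sp9, itself 1 of the 10 factors. The other 4 fell in Q140 against WT, Drd2 with -0.73 ± 0.04, Penk with -1.33 ± 0.05, Gpr6 with -0.75 ± 0.05 and Adora2a between Gpr6 and Penk, and rose in Q140 x Msh3-/- against Q140, by 0.41 to 0.76. Of 6 direct-pathway markers 4 fell and 1 rose: Drd1 was -0.71 ± 0.04 (adjusted p = 9.58e-20), and Tac1, the precursor of substance P, was 0.22 ± 0.05 higher (0.00102), with 180 ± 7.98 CPM in Q140 mice and 155 ± 13 CPM in WT mice. The rise of Isl1 and Eya1 stood beside a fall of most direct-pathway markers.

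Some of the factors are also made by other striatal cells, so the markers of those cells were read beside them. Over all 19714 genes tested in Q140 against WT, 3358 rose and 3148 fell. Of 6 cholinergic interneuron markers, cells that also use Isl1, 5 fell and none rose in Q140 against WT; their sum was 113 to 131 CPM in Q140 mice and 134 to 154 CPM in WT mice, and Chat was -0.22 ± 0.05 (adjusted p = 0.000296). Of 10 vascular and mural markers, where Ebf1 is also found, 9 fell, and their sum was 295 to 320 CPM in Q140 mice and 350 to 421 CPM in WT mice. Of 8 markers of neuroblasts and progenitors, cells of the ventricular wall that use Sp9 and Meis2, 2 rose, Sox11 by 0.76 ± 0.12 (adjusted p = 1.1e-06) and Dcx by 0.51 ± 0.08 (5.52e-06); the sum of the list was 286 to 356 CPM in Q140 mice and 274 to 306 CPM in WT mice. Of 8 cortical neuron markers 2 rose and 1 fell, with sums of 46.9 to 60.7 CPM in Q140 mice and 47.2 to 63.8 CPM in WT mice, and the cortical markers Neurod6 and Neurod2 averaged under 1 CPM in both groups.

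The remaining cell types were read in the same way in Q140 against WT. Of 10 markers of other interneurons 2 fell, and of 5 thalamic and pallidal markers 1 fell. Both shares were near that of all genes, of which 3148 of 19714 fell. Astrocytes had 4 of 8 markers lower, with sums of 3750 to 4060 CPM in Q140 mice and 4320 to 4760 CPM in WT mice, microglia 4 of 8, with sums of 353 to 411 CPM in Q140 mice and 421 to 502 CPM in WT mice, and oligodendrocytes 2 of 8. No marker averaged 0 in any of these lists. The part of these cell types in the differences of the factors was not tested.

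In Q140 x Msh3-/- against Q140, 5 factors rose, and 16.3% of all 19714 genes tested were called, 1725 higher and 1492 lower. The markers of other cells that were called were all higher, and their counts are to be read beside that share. Of 8 cortical neuron markers 1 rose, Neurod6 by 1.88 ± 0.65 (adjusted p = 0.0391) with a mean under 1 CPM in both groups, and Slc17a7 was at 1.64 ± 0.59 (0.0515). The sum of the cortical list was 50.9 to 131 CPM (median 58.7) in Q140 x Msh3-/- mice and 46.9 to 60.7 CPM (median 54.9) in Q140 mice, and the median log2 fold change of the list was 0.35, beside 0.0004 over all genes tested. Of 10 vascular and mural markers 2 rose, Pdgfrb by 0.19 ± 0.05 (adjusted p = 0.0116) and Cdh5 by 0.21 ± 0.07 (0.0343), with sums of 287 to 344 CPM in Q140 x Msh3-/- mice and 295 to 320 CPM in Q140 mice. The sum of the cholinergic interneuron list was 116 to 142 CPM in Q140 x Msh3-/- mice and 113 to 131 CPM in Q140 mice. None of the 8 neuroblast and progenitor markers was called, with sums of 291 to 336 CPM in Q140 x Msh3-/- mice and 286 to 356 CPM in Q140 mice. Microglia had 2 of 8 markers higher, astrocytes 1 of 8 and other interneurons 1 of 10, and no oligodendrocyte, thalamic or pallidal marker was called. The part of these cells in the rise of the factors was not tested.

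**Figure D5:**
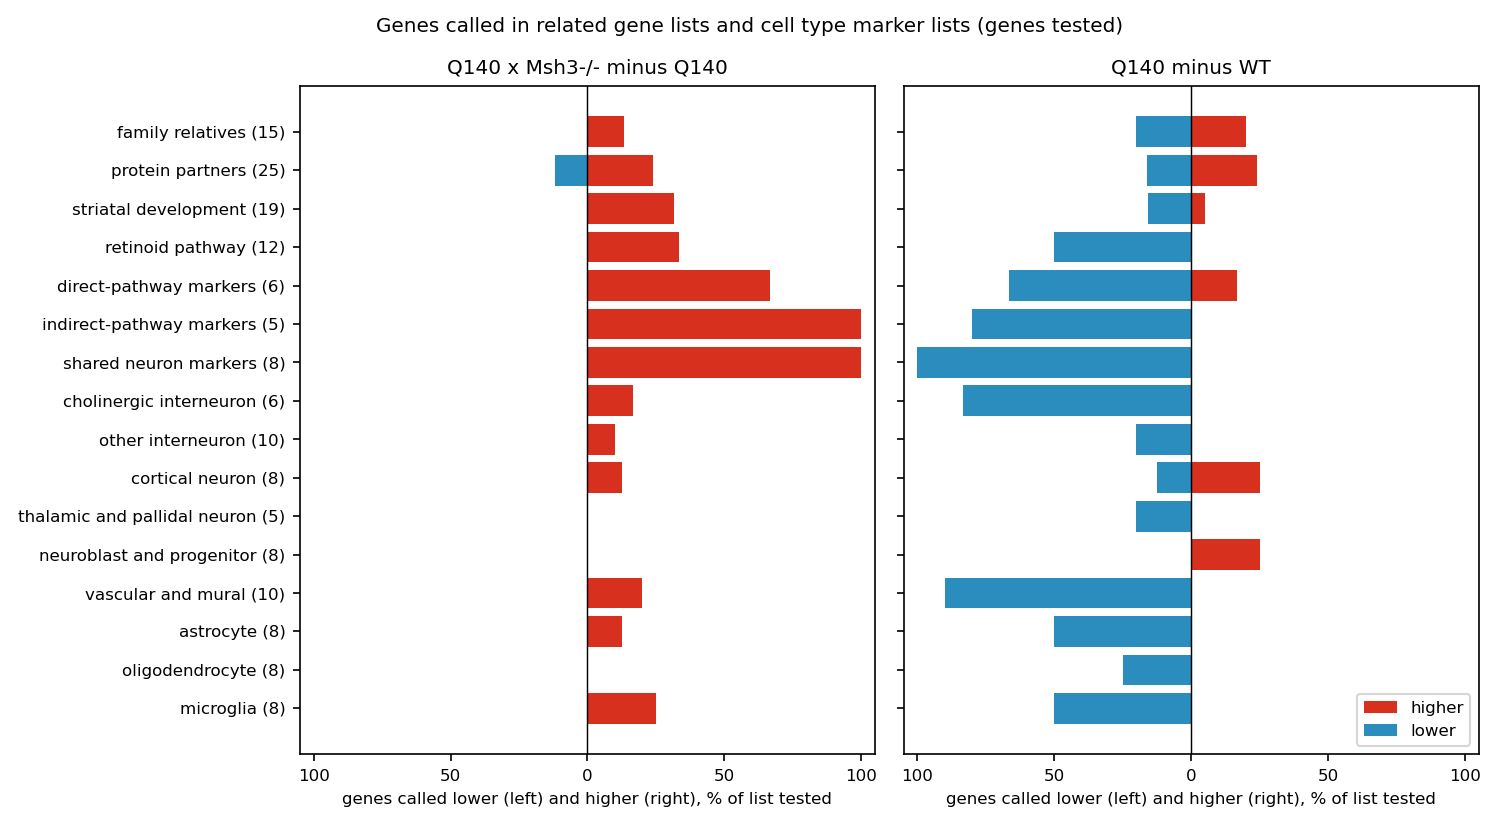
Share of each list's tested genes (number in brackets; the indirect-pathway list holds Sp9) called lower (blue, to the left) and higher (red, to the right) in Q140 x Msh3-/- against Q140 (left panel) and in Q140 against WT (right panel). All 8 shared neuron markers are higher in the left panel and lower in the right one, whereas family relatives and protein partners have calls in both directions in Q140 against WT.

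For each factor called in Q140 against WT, the genes with the most similar pattern were sought among 13894 genes, by the root-mean-square distance between their 5 log2 fold changes against WT, one per other genotype. The nearest were Dnajc8 and Tmem94 to Bcl11b (distances 0.0137 and 0.0143), Pard3 and D430041D05Rik to Foxp1 (0.0128 and 0.021), Igfbp5 and Creg2 to Meis2 (0.0115 and 0.0165), and Syt12 and Zcwpw1 to Rarb (0.0198 and 0.0218). The nearest to Rxrg lay farther off, Zbtb46 at 0.0538 and Gm37891 at 0.0554. Among the factors that rose, Isl1 was nearest to Ccdc39 and Lipe (0.0213 and 0.0235), and Eya1 to Cntnap5c and Hook2 (0.0343 and 0.0488). All these distances rest on the same 48 libraries and the same WT mice. Each is smaller than the SE of that factor's own fold change in Q140 against WT, such as 0.0352 for Meis2 and 0.0908 for Rxrg. Which genes rank nearest is therefore not resolved.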

How the data were processed

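The authors deposited 2 tables, one of raw whole-number counts per gene and one of FPKM. The deposited FPKM could be recomputed from the counts: each value is the count times a constant for the gene, over the total of the library (relative deviations up to 8.6e-08 in 16336 genes), so FPKM served for levels per length and was not tested. Library preparation used a stranded TruSeq protocol, per the labels. Tools listed in the submitters' processing notes are STAR (2.7.5c), SAMtools (1.10) and HTSeq (0.12.3), with build GRCm38; annotation release and strand setting: not given in the sources used here. Gene coordinates came from GENCODE for GRCm38.

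After filterByExpr (minimum count 10), 1 robust quasi-likelihood fit in edgeR 4.0.16 (R 4.3.3) covered all 48 libraries, with TMM scaling, terms for genotype and sex, and 41 residual degrees of freedom. Benjamini-Hochberg adjustment ran over all 19714 genes, with a threshold of 0.05, and intervals are 95%. The procedure was tested on simulated data. Alternatives were DESeq2 1.42.0, other scalings, no filter, single sexes, subsets of libraries and a replicate block. Of 120 same-number pairs of mice, 7 correlated above 0.1, so the numbers do not pair the mice. No 2 libraries of the same genotype agreed within sampling noise, and pairs of different genotypes were not compared in this way.

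All 10 factors are named. From each list, the rule was to name at most 4 genes, those called in Q140 minus WT with the smallest p. Named outside this rule were Meis3, Rxra, Hdac2, Chd4, Mta1, Mta2, Neurod6, Neurod2 and Slc17a7. The factors and lists were chosen with earlier results of these data known.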

Additional observations from a re-analysis of the deposited data

Results flagged for a closer look

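The Q140 difference depended on the Msh3 background for 4 factors, by the test of the difference itself. The Q140 effect on the Msh3-/- background minus that on the WT background was 0.297 for Bcl11b, 0.25 for Foxp1, 0.197 for Meis2 and 0.276 for Rarb on the log2 scale. All 4 have negative Q140 differences on both backgrounds, but on the Msh3-/- background only Meis2 passed the threshold (edgeR adjusted p = 0.0168). Bcl11b, Foxp1 and Rarb did not pass there (0.157, 0.076 and 0.203). Without the 4 libraries that stood apart, the interaction for Rarb had an adjusted p of 0.0609.

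Among 60 groups of 8 mice (10 factors in 6 genotypes), 3 held a mouse far from the others, and chance alone, at about 1 in 20, gives 3 as well. All 3 were Msh3+/- mice. The second female had 166.2 CPM of Rarb, where the next mouse had 135.7 and the lowest 111.2. The third male had 14.21 CPM of Eya1 (next 12.24, lowest 10.6) and 31.65 CPM of Sp9 (next 27.45, lowest 24.0).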

How the results depend on the processing

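Of 34 factor values called over 8 comparisons, none reversed under the 11 alternatives, and 31 kept their call under every alternative that keeps both sexes, but 14 did so under all 11, the fits of a single sex included; the 3 lost with both sexes were Sp9 in Q140 x Msh3-/- minus Q140, Bcl11b in Q140 x Msh3-/- minus Q140 x Msh3+/- with total counts, and Rarb in the interaction without the 4 libraries that stood apart, a choice made after seeing the data. Of 46 values not called, 8 passed under some alternative. The replicate block, in which the numbers did not pair the mice, lost the call of Sp9 in Q140 x Msh3-/- minus Q140 (0.147, adjusted p = 0.0589) and no other; 3 of 48 libraries correlated best with their own number.

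Counts of factors that moved by over 1.5 times were as follows. With total counts, 1 was higher in Q140 x Msh3+/- minus Q140 (also 1 with DESeq2), 1 in Q140 x Msh3-/- minus Q140 x Msh3+/-, 2 in Q140 x Msh3-/- minus Msh3-/- and 5 in Q140 x Msh3+/- minus Msh3+/-. In males alone 1 was higher in Q140 minus WT and 1 in Q140 x Msh3-/- minus Q140. For Q140 x Msh3-/- minus Q140 x Msh3+/- there was 1 higher in females and 0 in males, and likewise 1 and 0 for the interaction. For Q140 x Msh3-/- minus Msh3-/- there were 0 in either direction in each sex. For Q140 x Msh3-/- minus WT there were 0 higher in each sex, and 0 lower in females and 1 in males.

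Values that reversed were all uncalled. With total counts they were 0.018 for Sp9 in Q140 minus WT, and for Foxp2 -0.011 in Q140 x Msh3-/- minus Q140, -0.041 between the crosses and -0.028 in the interaction. Foxp2 was also -0.029 in Q140 minus WT with only the main library name prefix and -0.003 in males, -0.005 in Q140 x Msh3+/- minus Q140 in males, and between the crosses -0.021 in females and -0.002 in a fit of the groups compared. In Q140 x Msh3+/- minus Q140, males gave -0.05 for Rxrg and -0.088 for Isl1, females -0.019 for Meis2 and -0.017 for Eya1, and leaving out the 4 libraries -0.016 for Isl1. Between the crosses, males gave 0.004 for Isl1 and 0.039 for Ebf1. Ebf1 was 0.022 in Q140 x Msh3-/- minus Q140 in males and -0.04 in Q140 x Msh3-/- minus WT in females. The cause was not tested for any of these.

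Over all genes, calls in Q140 x Msh3+/- minus Q140 numbered 260, but 154 without the 4 libraries, 133 with name prefix as a term and 444 with DESeq2. In Q140 x Msh3-/- minus WT they numbered 1239, but 1850 with total counts. Females and males alone gave 3925 and 3144 for Q140 minus WT (6506 in all mice), 1648 and 518 for Q140 x Msh3-/- minus Q140 (3217), 1622 and 2218 for Q140 x Msh3+/- minus Msh3+/- (4247), 208 and 373 for Q140 x Msh3-/- minus Msh3-/- (1549), 158 and 466 for Q140 x Msh3-/- minus WT (1239), 127 and 84 between the crosses (637), and 489 and 114 for the interaction (1213); males gave 1 for Q140 x Msh3+/- minus Q140. With total counts, the median log2 fold change of all genes ran from -0.055 in the Msh3-/- interaction to 0.071 in Q140 x Msh3+/- minus Msh3+/-. In the main fit these 2 medians were -0.0035 and 0.0083. The lowest counts were 405 for Eya1 and 598 for Isl1. The spread between mice in these genes includes counting error, which was not separated out.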
